A study of Mus musculus with 6 samples.

Results

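The immunoglobulin heavy and light chain genes are the rows of the count table whose gene identifier has a GENCODE vM21 type of constant, variable, diversity, joining or LV gene. Pseudogenes are not among them, and the 4 LV genes are counted here as variable genes. There were 268 such genes of 55450 rows, all placed on GRCm38 (mm10) by identifier. The heavy chain locus Igh on chromosome 12 had 146 of them (115 variable, 19 diversity, 4 joining and 8 constant). The kappa light chain locus Igk on chromosome 6 had 110 (104 variable, 5 joining and 1 constant), and the lambda light chain locus Igl on chromosome 16 had 12 (3 variable, 5 joining and 4 constant).

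RNA was sequenced from bone marrow cells of C57BL6/SJL mice that carried transplanted haematopoietic stem cells, 12 weeks after transplantation into lethally irradiated recipients. The donor cells were LSK/SLAM stem cells, and the groups had endogenous or overexpressed microRNA-125a (miR-125a), a small RNA that is abundant in blood stem cells. Each library came from 2000 cells sorted as lineage-negative and Sca-1-positive, a fraction of stem cells and early progenitors, and was made with a low-input kit. The labels name 6 libraries, and counts of 4 were analysed here: replicates 1 and 3 with endogenous miR-125a, and replicates 2 and 3 with overexpressed miR-125a (n = 2 per group). The endogenous libraries are titled EV with a replicate number, and what EV stands for is not given in the sources used here. Apart from this, the labels name no vector, promoter, recipient of a library, or gate between donor and host cells. Nor do they tie any library to its own mouse, and p-values therefore measure only how far these libraries differ, which may be technical. Values are given throughout in the order endogenous 1, endogenous 3, then overexpressed 2, overexpressed 3.

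An antibody is made of 2 kinds of chain, each with a variable and a constant part. In a developing B cell, the RAG recombinase joins a variable (V) and a joining (J) segment, with a diversity (D) segment in the heavy chain, and the joined exon is spliced to a constant (C) region. Each mature B cell carries either kappa or lambda light chains, and in the mouse most carry kappa. The heavy chain constant gene sets the class: Ighm gives IgM, Ighd IgD, the Ighg genes IgG, Igha IgA and Ighe IgE. Variable and constant genes can also be transcribed before they are joined, as germline transcripts, and such transcripts are known from early progenitors. Plasma cells, which secrete antibody, hold very large amounts of this RNA, and lineage depletion of bone marrow is meant to remove B cells.

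Depth was low, with 654126 to 737431 counts per library. The sort marker Sca-1, encoded by Ly6a, had 1 and 0 counts in the endogenous and 1 and 1 in the overexpressed libraries, although the cells were sorted as Sca-1-positive. Kit, the stem cell factor receptor, had 4 and 25 against 9 and 5. Genes of the mitochondrial genome took 4.14% and 4.22% of the endogenous and 6.29% of the overexpressed replicate 2 counts, and 0.558% in overexpressed replicate 3, which stood apart. Ltf, a granule protein of neutrophils, had 4538 and 3735 against 8490 and 7413 counts. In bulk RNA, fewer cells of a type and less RNA per cell cannot be told apart. The part of other cells in the immunoglobulin counts was not tested.

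Immunoglobulin genes held 3063 and 1052 counts in endogenous replicates 1 and 3, which is 0.468% and 0.148% of all counts. They held 4588 and 1280 counts in overexpressed replicates 2 and 3, or 0.622% and 0.179%. The groups overlapped, and each group had 1 library with a high and 1 with a low total. The 2 high libraries differed in what filled them. Iglc2, a lambda constant gene, led endogenous replicate 1 with 988 counts (32.3% of its immunoglobulin counts), and Igkc, the kappa constant gene, led overexpressed replicate 2 with 2323 (50.6%). In both low libraries the kappa variable gene Igkv3-12 led, with 166 counts (15.8%) in endogenous replicate 3 and 437 (34.1%) in overexpressed replicate 3.

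By locus, in CPM by effective library size, Igh stood at 573 and 417 in the endogenous and 1110 and 559 in the overexpressed libraries. Igk stood at 1310 and 677 against 5820 and 1210. Igl stood at 2740 and 192 against 334 and 12.5. In all 3 loci the groups overlapped. The log2 ratio of mean CPM, overexpressed over endogenous, was 0.75 for Igh, 1.82 for Igk and -3.08 for Igl, beside standard deviations between replicates of 0.55, 1.23 and 3.05 on the log2 scale. Without overexpressed replicate 2 these ratios were 0.18, 0.28 and -6.87, so that library carried most of the difference in the kappa locus. Without endogenous replicate 1 the Igl ratio was -0.15, so that library carried most of the difference in the lambda locus.

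Of the 268 genes, 64 had no count in any library, 188 had counts but did not pass the filter on low counts, and 16 passed and were tested. The 16 are 5 heavy chain constant genes, Igkc, 3 lambda constant genes, 5 variable genes of the Igkv3 family and 2 lambda variable genes. Each library had counts for 119 and 126 (endogenous) and 109 and 110 (overexpressed) of the genes.

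Among heavy chain constant genes, Ighe, which encodes the constant part of IgE, had the most counts over the 4 libraries. Ighe had 102 and 149 counts in the endogenous and 312 and 159 in the overexpressed libraries. Both overexpressed libraries were above both endogenous ones, by 10 counts at the closest, and overexpressed replicate 2 stood highest. The log2 fold was 1.09 ± 0.75 (SE; edgeR quasi-likelihood test, adjusted p = 0.881, Benjamini-Hochberg), and without overexpressed replicate 2 it was 0.39. Per kilobase of exon, Ighe held 64.4 and 94.0 counts against 197 and 100, and Ighm held 67.3 and 10.1 against 38.2 and 20.7. By length Ighe was thus above Ighm in 3 of 4 libraries and a little below it in endogenous replicate 1.

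Ighm, the constant gene of the first class a B cell makes, had 127 and 19 counts against 72 and 39. The highest and the lowest value were both endogenous, and the log2 fold was -0.35 ± 1.04 (edgeR, adjusted p = 0.987). Ighd, spliced from the same primary transcript in naive B cells, had 12 and 30 counts against 42 and 9, with a log2 fold of 0.50 ± 0.82 (edgeR, adjusted p = 0.973). Its groups overlapped too.

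Apart from Ighe, the constant genes of the switched classes were low except in single libraries. Igha, the IgA constant gene, had 7 and 9 counts in the endogenous libraries and 128 and 2 in the overexpressed ones. Ighg1 had 2 and 2 against 5 and 96, and so was high in the other overexpressed library. Ighg2b had 10 and 12 against 53 and 4, with a log2 fold of 1.56 ± 1.08 (edgeR, adjusted p = 0.882). Igha and Ighg2b were both high in overexpressed replicate 2, and Ighg1 in overexpressed replicate 3. Ighg2c had 11 and 10 against 4 and 6, so the groups did not overlap, with a log2 fold of -0.94 ± 0.60 (edgeR, adjusted p = 0.863). Ighg3 had 4 and 6 against 0 and 4. Ighg2b and Ighg2c are similar in sequence: 5.5% of the 50-base windows of Ighg2c occur in Ighg2b too.

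**Figure D1:**
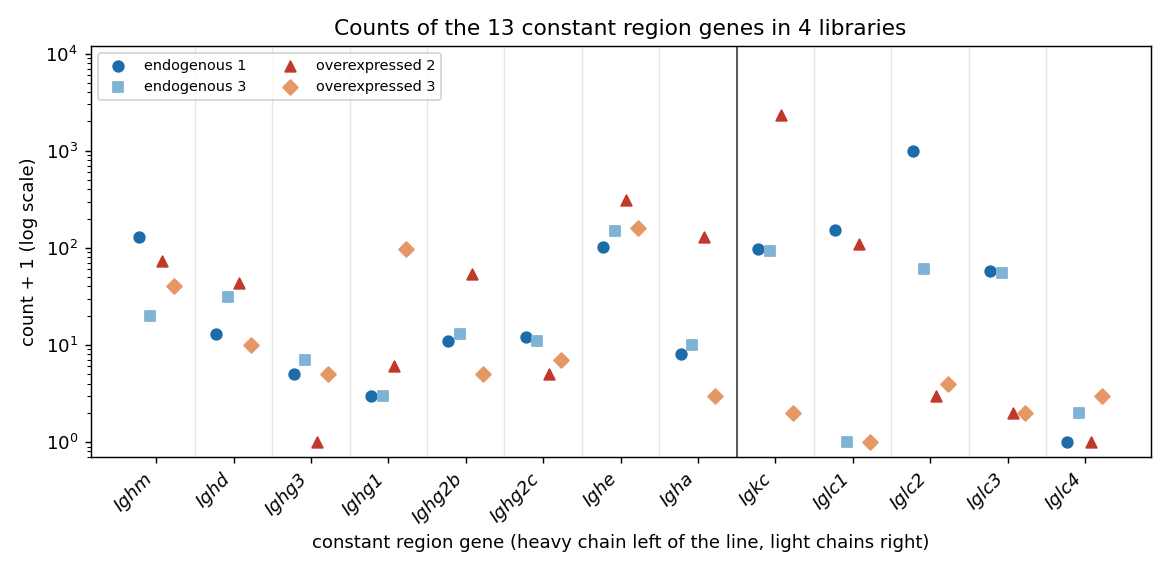
Counts of each constant region gene (x axis) on a log scale of count + 1 (y axis), 1 point per library. Igkc ran from 1 to 2323 and Iglc2 from 2 to 988, while Ighe stayed between 102 and 312.

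The single kappa constant gene, Igkc (chr6:70726435-70726966, plus strand), differed more between libraries of 1 group than between groups. It had 96 and 92 counts in the endogenous libraries, 2323 in overexpressed replicate 2 and 1 in overexpressed replicate 3. The endogenous libraries lay close together, with 1 overexpressed library far above and the other far below them. The log2 fold was 3.84 ± 2.41 (edgeR, adjusted p = 0.855), and without overexpressed replicate 2, on the 1 count left in that group, it was -6.37. Per kilobase Igkc held 180 and 173 counts against 4370 and 1.88. Igkc overlaps the span of the long noncoding gene Gm30211, which had 4 and 51 against 8 and 9 counts.

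The kappa joining genes lie 2.5 to 3.9 kb before Igkc and are spliced to it after joining to a variable gene. Igkj2 had 18 counts in overexpressed replicate 2 and 0 in the other 3 libraries. Igkj5 had 4 and Igkj4 3 in that library, with 1 count of Igkj4 in endogenous replicate 1. Igkj1 had 2 in endogenous replicate 1 and 1 in overexpressed replicate 2, and Igkj3, a nonfunctional segment, had 2 in endogenous replicate 3. Together the kappa joining genes had 3 and 2 counts against 26 and 0, and so followed Igkc. They are printed because they show how little sequence can be counted: each is 38 or 39 coding bases long, shorter than the 50-base window used here. Capitals mark the phenylalanine-glycine codons that begin the conserved motif of light chain joining segments (GENCODE vM21, plus strand of chromosome 6).

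Igkj1: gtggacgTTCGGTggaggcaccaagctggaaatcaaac
Igkj2: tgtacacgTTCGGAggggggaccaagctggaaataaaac
Igkj4: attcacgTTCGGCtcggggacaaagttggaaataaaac
Igkj5: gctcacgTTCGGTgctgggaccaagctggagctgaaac

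Most kappa variable genes had few counts, and 2 groups of them stood out. The first is Igkv3-12, Igkv3-10, Igkv3-7 and Igkv3-5, members of 1 family that lie 208.2, 153.8, 119.0 and 63.2 kb before Igkc. Each had at least 43 counts in every library. Igkv3-12 had 269 and 166 counts in the endogenous and 224 and 437 in the overexpressed libraries. Overexpressed replicate 3, where Igkc had 1 count, was the highest of the 4. The groups overlapped, and the log2 fold was 0.66 ± 0.76 (edgeR, adjusted p = 0.957).

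Igkv3-10 had 129 and 43 counts against 75 and 184 and was again highest in overexpressed replicate 3. Igkv3-7 had 136 and 69 against 49 and 77. Igkv3-5 had 136 and 59 against 48 and 84. The last 2 were highest in endogenous replicate 1 and lowest in overexpressed replicate 2. Their log2 folds were 0.60 ± 0.89, -0.65 ± 0.72 and -0.52 ± 0.76 in that order (edgeR, adjusted p = 0.971, 0.955 and 0.970), and all 3 pairs of groups overlapped. Igkv3-1, the family member nearest to Igkc, had 10 and 10 against 5 and 9, with a log2 fold of -0.39 ± 0.55 (edgeR, adjusted p = 0.969).

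The sum of the first 4 was 670 and 337 counts in the endogenous and 396 and 782 in the overexpressed libraries. It did not follow Igkc: the library with the most Igkc had 396 and the library with the least had 782. Per kilobase the 4 genes together held 457 and 230 counts against 270 and 534, and all genes of the table held 4.98 and 5.43 against 5.62 and 5.45. Igkv3-9, Igkv3-3 and Igkv3-2, which lie among them or closer to Igkc, had 2 counts or fewer in every library.

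Reads cannot always be placed within this family. Igkv3-12 and Igkv3-7 are identical at 347 of 359 coding bases (96.7%), and Igkv3-10 and Igkv3-5 at 353 of 359 (98.3%). Of the 50-base windows of Igkv3-12, 58.4% occur in another annotated transcript, against 45.7% for Igkv3-10, 40.0% for Igkv3-7 and 51.4% for Igkv3-5. How the counter treated such reads is not given in the sources used here. Bases 53 to 352 of both coding sequences (GENCODE vM21, plus strand) show how far apart the differing bases lie, with 10 of the 12 in capitals here. The spliced coding sequences come from chr6:70518250-70518849 (Igkv3-12) and chr6:70607437-70608036 (Igkv3-7).

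Igkv3-12: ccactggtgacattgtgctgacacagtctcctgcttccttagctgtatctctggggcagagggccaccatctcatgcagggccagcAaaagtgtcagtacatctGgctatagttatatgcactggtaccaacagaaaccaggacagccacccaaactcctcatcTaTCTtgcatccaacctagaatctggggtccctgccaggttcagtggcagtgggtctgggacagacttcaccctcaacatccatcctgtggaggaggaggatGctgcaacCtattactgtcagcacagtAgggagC
Igkv3-7: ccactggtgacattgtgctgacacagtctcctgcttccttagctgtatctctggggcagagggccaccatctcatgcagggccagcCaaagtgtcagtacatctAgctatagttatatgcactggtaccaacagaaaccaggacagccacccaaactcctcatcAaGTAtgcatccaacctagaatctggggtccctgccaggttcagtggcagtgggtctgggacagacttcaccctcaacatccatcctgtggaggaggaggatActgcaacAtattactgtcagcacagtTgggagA

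The second group of kappa variable genes was present in overexpressed replicate 2. In that library 12 of them had at least 20 counts each while none had more than 3 in any other library, a grouping made after the values were seen. Their counts ran from 22 to 155 and summed to 863. Igkv14-111 had 1 and 1 counts in the endogenous libraries and 155 and 1 in the overexpressed ones. Igkv1-110 had 1 and 3 against 125 and 0, and Igkv8-21 had 0 and 1 against 116 and 0.

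The other 9 of these genes, with their counts in that library, were Igkv4-63 (94), Igkv8-27 (81), Igkv3-4 (76), Igkv12-46 (65), Igkv1-117 (45), Igkv9-120 (33), Igkv4-57 (29), Igkv2-112 (22) and Igkv5-43 (22). They lie from 54.6 to 2676.5 kb before Igkc, and 6 of the 12 are on the plus and 6 on the minus strand, so they span most of the locus. Igkv1-117 and Igkv1-110 share 177 of their 50-base windows, and reads of 1 could be counted for the other.

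With the Igkv3 group of 4 taken out, the kappa variable genes had 100 and 123 counts in the endogenous and 931 and 86 in the overexpressed libraries. In endogenous replicate 3, Igkv10-96 had 30 counts against 0, 0 and 1 in the other libraries. It was the only kappa variable gene outside the Igkv3 group with at least 20 counts in a library other than overexpressed replicate 2.

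**Figure D2:**
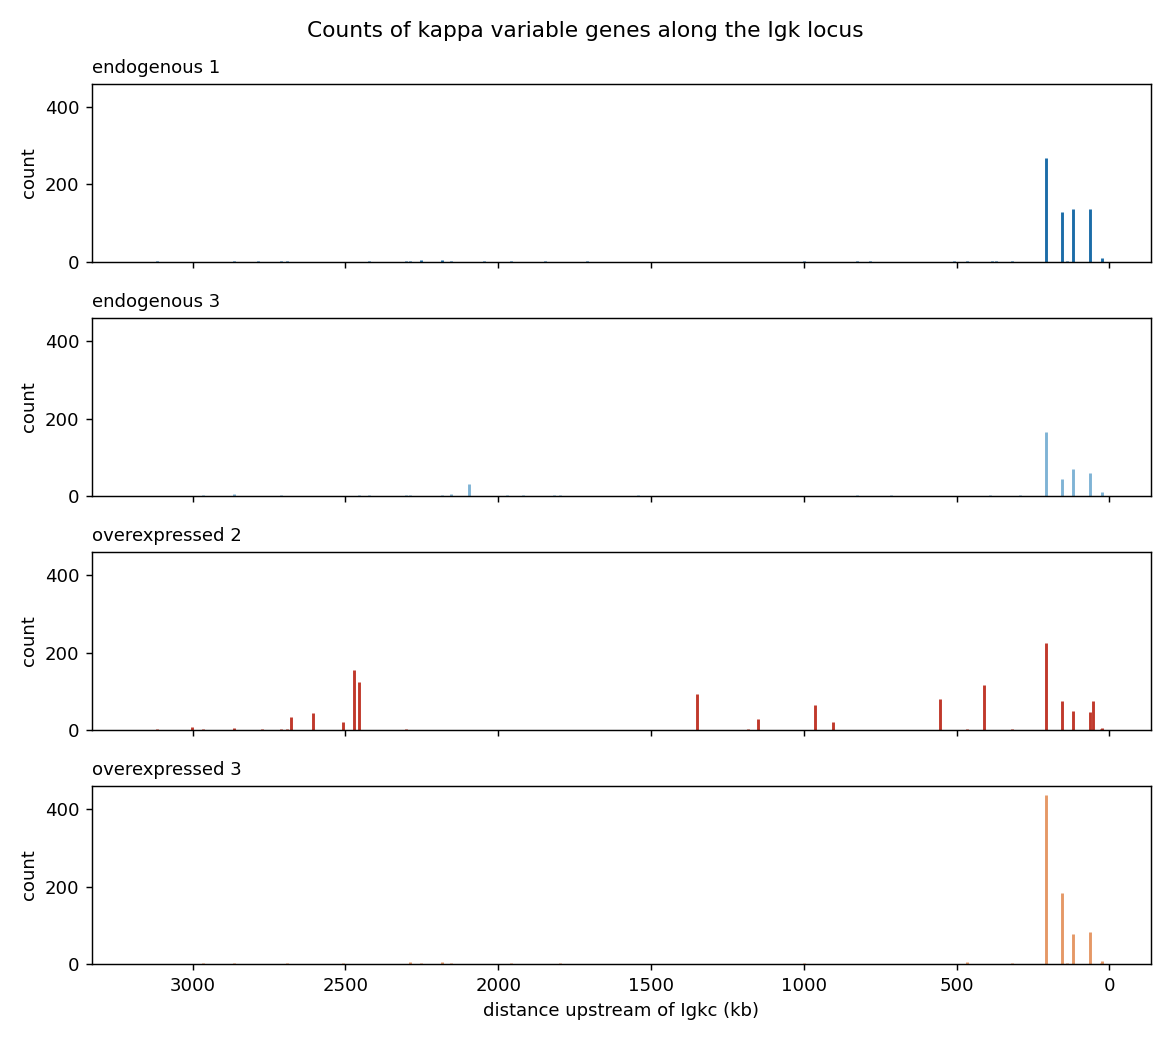
Counts (y axis) of 102 kappa variable genes by distance upstream of Igkc in kb (x axis), 1 panel per library; the 2 LV genes, which lie far outside the locus, are left out. The 4 Igkv3 genes are present in every panel, and 12 further genes with 22 to 155 counts stand only in the panel of overexpressed replicate 2.

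The lambda genes separated into 2 sets that differed in their libraries. In the mouse Iglv2 is mostly joined next to Iglc2, and Iglv1 next to Iglc1 or Iglc3, so a variable and a constant gene are often read in 1 transcript. Iglc2 had 988 and 60 counts in the endogenous and 2 and 3 in the overexpressed libraries. Iglv2 had 510 and 35 against 1 and 1. Iglc3 had 57 and 54 against 1 and 1. Both endogenous libraries were above both overexpressed ones for all 3 genes, with the endogenous libraries far apart for Iglc2 and Iglv2 and close together for Iglc3.

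In the ratio of summed counts, endogenous over overexpressed and scaled by effective library size, Iglc2 was 191-fold higher (95% exact interval 81.7 to 590). Iglv2 was 249-fold higher (68.5 to 2060) and Iglc3 50.7-fold higher (13.7 to 423). The sizes for Iglc2 and Iglv2 rest on endogenous replicate 1: without it their log2 folds were -4.22 and -4.67, and that of Iglc3 was -5.29. The intervals treat the pooled reads of each group as independent and leave out the spread between libraries. The labels name no molecular identifiers, so copies of 1 molecule may have been counted more than once. The ratios rest on 5, 2 and 2 overexpressed counts. The log2 fold of Iglc3 was -5.52 ± 0.62 (edgeR, unadjusted p = 0.000119, adjusted p = 0.771). That of Iglv2 was -7.94 ± 1.79 (edgeR, unadjusted p = 0.00456, adjusted p = 0.845), and that of Iglc2 was -7.67 ± 1.78 (edgeR, unadjusted p = 0.00513, adjusted p = 0.845). None passed the threshold of 0.05 on the adjusted p.

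Iglc1 and Iglv1 took the other pattern. Iglc1 had 151 and 0 counts in the endogenous and 109 and 0 in the overexpressed libraries. Iglv1 had 108 and 1 against 94 and 1. For both genes, endogenous replicate 1 and overexpressed replicate 2 were high and the other 2 libraries were at 0 or 1. The log2 folds were -0.40 ± 2.42 for Iglc1 and -0.13 ± 2.05 for Iglv1 (edgeR, adjusted p = 0.996 and 0.997). The libraries in which Iglc1 and Iglv1 were high are those with the most immunoglobulin counts, and also those with the most Cd79a, the signalling partner of the B cell receptor (117 and 6 against 75 and 6 counts).

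Iglv3 had 0 and 3 against 2 and 1 counts, and Iglc4 had 0 and 1 against 0 and 2. Among lambda joining genes Iglj3 had 1 and 2 against 0 and 0, and Iglj1 had 0 and 0 against 2 and 0. All 4 were near 0, so no difference was detectable at this depth.

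The lambda genes are printed because their similarity bears on which gene a read was counted for (coding sequences of GENCODE vM21, minus strand of chromosome 16). Iglc2 and Iglc3 are identical at 303 of 314 aligned bases (96.5%), and Iglc1 and Iglc2 at 230 of 314 (73.2%). Capitals in Iglc2 mark the bases that differ from Iglc3, those in Iglc3 and Iglc1 the bases that differ from Iglc2, unpaired end bases included. The coding sequences lie at chr16:19198539-19198853 (Iglc2), chr16:19065368-19065681 (Iglc3) and chr16:19061755-19062071 (Iglc1). Bases 1 to 300 are shown for the first 2 and bases 12 to 311 for Iglc1.

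Iglc2: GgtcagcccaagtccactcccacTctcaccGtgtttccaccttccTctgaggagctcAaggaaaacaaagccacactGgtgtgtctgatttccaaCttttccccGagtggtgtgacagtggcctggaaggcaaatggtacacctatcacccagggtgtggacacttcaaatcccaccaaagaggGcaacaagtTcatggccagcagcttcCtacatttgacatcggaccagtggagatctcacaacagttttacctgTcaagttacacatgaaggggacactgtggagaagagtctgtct
Iglc3: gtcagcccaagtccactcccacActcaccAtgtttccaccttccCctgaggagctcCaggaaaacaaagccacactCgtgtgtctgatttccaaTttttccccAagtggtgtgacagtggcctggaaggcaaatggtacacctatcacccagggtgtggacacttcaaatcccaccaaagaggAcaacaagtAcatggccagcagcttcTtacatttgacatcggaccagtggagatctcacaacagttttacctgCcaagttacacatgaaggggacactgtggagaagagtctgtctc
Iglc1: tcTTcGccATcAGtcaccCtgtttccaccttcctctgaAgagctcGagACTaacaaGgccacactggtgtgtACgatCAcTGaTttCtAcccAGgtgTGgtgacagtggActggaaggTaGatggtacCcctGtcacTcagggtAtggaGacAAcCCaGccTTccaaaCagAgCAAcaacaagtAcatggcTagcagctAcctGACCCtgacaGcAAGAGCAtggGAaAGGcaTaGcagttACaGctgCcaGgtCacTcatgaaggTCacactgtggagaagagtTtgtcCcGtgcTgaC

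Iglc3 had almost as many counts in endogenous replicate 3 (54) as Iglc2 (60), and far fewer in endogenous replicate 1 (57 against 988). So the 2 genes did not keep 1 ratio across libraries. Whether reads of 1 were counted for the other was not tested. Of the 50-base windows of Iglc2, 43 occur in Iglc3 (7.7% of its windows are shared in all). Iglc1 shared no window with another annotated transcript. Iglc1, Iglc3 and Iglv1 overlap the span of the antisense gene 2010309G21Rik, which had 3 and 4 against 2 and 2 counts, and whether the counter used strand is not given in the sources used here.

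The lambda variable genes Iglv1 (chr16:19085017-19085460) and Iglv2 (chr16:19260401-19260844) are identical at 340 of 351 coding bases (96.9%), and bases 19 to 318 are shown with 9 of the 11 differing bases in capitals. They share 76 of their 50-base windows. Their counts in overexpressed replicate 2 were 94 for Iglv1 and 1 for Iglv2, and whether reads of 1 were counted for the other was not tested.

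Iglv1: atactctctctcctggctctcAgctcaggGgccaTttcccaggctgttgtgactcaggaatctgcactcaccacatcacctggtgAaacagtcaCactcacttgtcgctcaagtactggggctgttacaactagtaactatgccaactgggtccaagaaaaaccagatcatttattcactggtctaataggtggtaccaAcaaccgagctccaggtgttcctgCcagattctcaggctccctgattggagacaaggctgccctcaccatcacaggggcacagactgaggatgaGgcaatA
Iglv2: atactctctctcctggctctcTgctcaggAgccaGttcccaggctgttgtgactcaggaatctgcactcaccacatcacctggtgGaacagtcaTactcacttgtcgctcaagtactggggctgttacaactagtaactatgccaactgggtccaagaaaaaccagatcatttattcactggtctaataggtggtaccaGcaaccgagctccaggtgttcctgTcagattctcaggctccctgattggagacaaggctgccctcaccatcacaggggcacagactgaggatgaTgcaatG

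**Figure D3:**
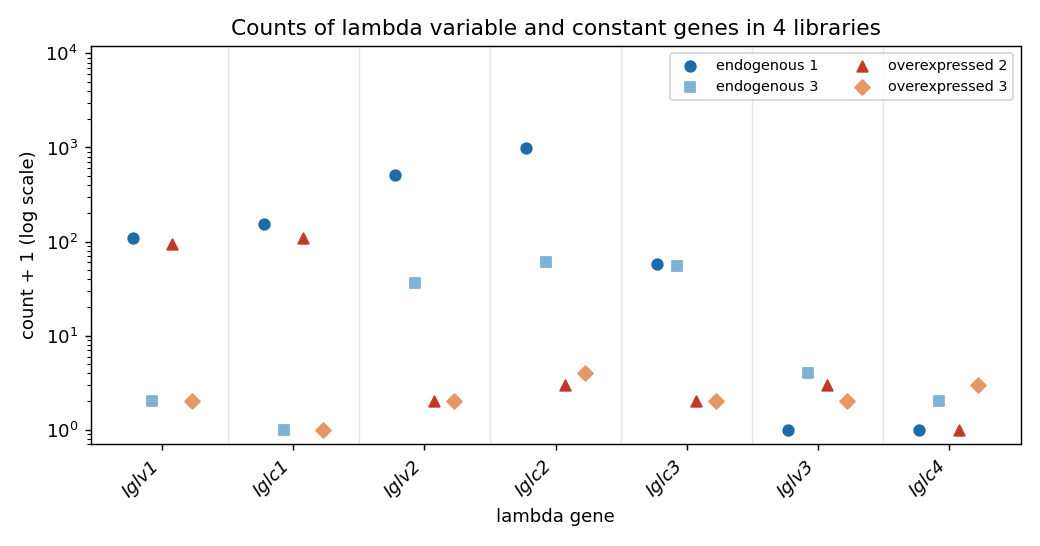
Counts of lambda variable and constant genes (x axis) on a log scale of count + 1 (y axis), 1 point per library. Iglv2, Iglc2 and Iglc3 were at 35 or more in both endogenous and at 3 or fewer in both overexpressed libraries, while Iglv1 and Iglc1 were high in endogenous replicate 1 and overexpressed replicate 2.

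The balance of the light chains differed from library to library. Lambda made up 92.6% of light chain constant counts in endogenous replicate 1 (exact Clopper-Pearson 95% interval 91.0 to 93.9) and 55.6% in endogenous replicate 3 (48.5 to 62.4). It made up 4.60% in overexpressed replicate 2 (3.80 to 5.51). In overexpressed replicate 3 the share was 85.7%, but from 6 of 7 counts, with an interval of 42.1 to 99.6. The intervals of the 3 libraries with over 200 light chain counts did not overlap, but they too treat reads as independent.

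Heavy chain variable genes had no family that was high in all libraries. Their summed counts were 102 and 101 in the endogenous and 77 and 81 in the overexpressed libraries, over 115 genes of which 86 had any count. Only 1 had at least 20 counts in a library: Ighv6-3, with 31 in overexpressed replicate 2 and 0 elsewhere. Without it that library had 46 counts of heavy chain variable genes. Ighv1-37 had 19 and 1 counts against 0 and 9, and Ighv5-9-1 had 8 and 10 against 2 and 4.

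Of the other heavy chain variable genes with the most counts, Ighv1-66 had 2 and 5 against 4 and 3, and Ighv1-75 had 4 and 3 against 0 and 6. Ighv6-6 had 6 and 4 against 1 and 2, and Ighv9-2 had 5 and 5 against 1 and 2. Diversity and joining segments of the heavy chain were almost empty. Ighd5-5 had 1 and 0 against 2 and 0, Ighd4-1 had 0 and 0 against 1 and 1, and Ighj1 had 1 in every library. Ighj4 had 2 counts, in overexpressed replicate 2, and Ighj3 had 1 each in endogenous replicate 3 and overexpressed replicate 2. Of the 19 diversity genes 16 had no count, and Ighd3-2 had 1.

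The low variable genes are described beside other gene classes. The 202 variable genes with fewer than 20 counts in every library were chosen for their low counts and held 2.67 and 2.52 counts per kilobase in the endogenous and 1.57 and 2.18 in the overexpressed libraries. Immunoglobulin pseudogenes (164 rows) held 3.06 and 4.12 against 2.12 and 3.00, and T cell receptor genes (226 rows) 2.12 and 2.27 against 1.77 and 2.20. Odorant and pheromone receptor genes (1481 rows), which are not used in bone marrow, held 2.87 and 3.77 against 2.56 and 3.42. All 4 classes were lowest in overexpressed replicate 2.

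In the test across the whole table, 0 of the 16 tested immunoglobulin genes were called at an adjusted p under 0.05, as were 0 of 10808 tested genes (0%; edgeR quasi-likelihood test, Benjamini-Hochberg). At an unadjusted p under 0.05, 3 of 16 were lower in the overexpressed libraries (Iglc3, Iglc2 and Iglv2) beside 3.11% of all tested genes. Of the 16, 0 were higher beside 2.13% (5.24% in either direction). The 3 lower genes had 3 counts or fewer in each overexpressed library, so they passed the filter on low counts only through the endogenous group. The filter thus favoured a lower fold for them, and the share beside them is no test of an excess. The groups did not overlap in 4 of 16 lower (the same 3 and Ighg2c) beside 17.9% of all tested genes, and in 1 of 16 higher (Ighe) beside 15.3%. The median log2 fold of the 16 was -0.37, with 6 above and 10 below 0, and that of all tested genes was -0.01. Iglv2 and Iglc2 are often read in 1 transcript, so they are not separate measurements.

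**Figure D4:**
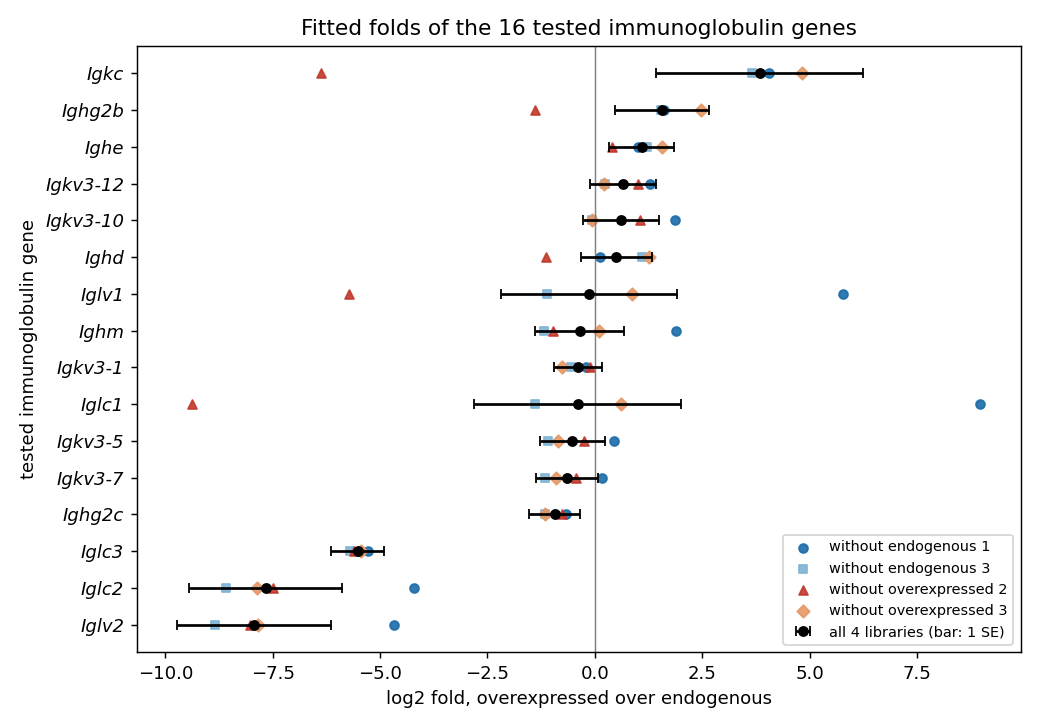
Log2 folds, overexpressed over endogenous (x axis), of the 16 tested immunoglobulin genes (y axis); black points with bars are the fit of 4 libraries with 1 SE, and coloured points are fits without 1 library. Iglc2, Iglc3 and Iglv2 stay below -4 in every fit, while Igkc, Iglc1 and Iglv1 change sign with the library left out.

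These calls depended on the tool. DESeq2 called the same 3 lambda genes among 12 with an adjusted p, beside 3.68% of the 4103 genes to which it gave one. The edgeR likelihood ratio test called them among 16, beside 0.777%. Both used the filtered genes, so the limit from the filter given above holds for these shares too. With no filter on low counts edgeR called 20 of 204 immunoglobulin genes beside 1.78% of all rows above 0. Of these, 16 were higher in the overexpressed group beside 0.709%, and 4 were lower beside 1.07%. Those 20 were Igha, Ighg1, Ighv6-3, Igkj2, Igkv10-96, the 12 kappa variable genes of overexpressed replicate 2 and the 3 lambda genes. Without overexpressed replicate 2 the count was 6 (3.23% of 186, beside 0.831%): Ighg1, Igkc, Iglc1, Iglc3, Iglv1 and Iglv2. Leaving out endogenous replicate 1 gave 20 (beside 1.14%), overexpressed replicate 3 also 20 (beside 1.35%), and endogenous replicate 3 gave 16 (beside 0.963%).

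Only Iglc3 and Iglv2 were called with no filter in all 4 of these fits and with all libraries. Igha was called in none of the fits without an endogenous library and had an adjusted p of 0.978 without overexpressed replicate 2 (edgeR). Igkc, with an adjusted p of 0.0807 with all libraries, was called as lower without overexpressed replicate 2 (edgeR, adjusted p = 0.00774). Ighg1 lost its call without overexpressed replicate 3, the library that held its 96 counts (edgeR, adjusted p = 0.915).

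The authors' deposited table lists 17039 genes with 404 past an FDR of 0.05 (2.37%), and 19 of its rows are immunoglobulin genes. Of those 19 in the authors' deposited table, 4 passed: Iglc3 (FDR 0.000124), Iglv2 (0.000193), Iglc2 (0.000284) and Igha (0.0251). Igkc had an FDR of 0.0638 in the authors' deposited table. The folds of the authors' deposited table have the opposite sign to those given here in 10685 of 10808 shared rows, so they are read as endogenous over overexpressed.

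Genes that work with immunoglobulins and markers of other cells were given by 13 lists of 129 genes in all, and 0 tested members of any list were called (0% of all tested genes; edgeR). Jchain, which links IgA and IgM into polymers in plasma cells, had 81 and 90 counts in the endogenous and 973 and 10 in the overexpressed libraries. It was high in the library that was high for Igkc and Igha and low in the library with 1 count of Igkc. Its log2 fold was 2.74 ± 1.77 (edgeR, adjusted p = 0.864). The plasma cell list summed to 230 and 279 against 1151 and 124 counts, with Jchain giving 973 of the 1151.

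The other plasma cell genes had far fewer counts in overexpressed replicate 2 than Jchain. Xbp1, the transcription factor of the secretory programme, had 27 and 27 against 16 and 14, and Prdm1 had 64 and 53 against 40 and 54. Sdc1, which marks plasma cells on the surface, had 16 and 6 against 10 and 9. Mzb1, a chaperone of antibody assembly, had 0 and 0 against 0 and 1, and Txndc5 had 2 and 10 against 17 and 4. Edem1, of the degradation of misfolded proteins, had 27 and 64 against 77 and 18, and Derl3 had 3 and 5 against 6 and 3. Txndc5, Edem1 and Derl3 were thus also highest in overexpressed replicate 2, while Xbp1, Prdm1 and Sdc1 were highest in endogenous replicate 1 or level between the endogenous libraries. Of the 12 listed genes 5 were tested, with 3 log2 folds above 0, 2 below and a median of 0.30. The part of plasma cells in the kappa counts of overexpressed replicate 2 was not tested.

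Genes of the B cell surface differed from the immunoglobulin genes and from each other. Cd79a and Cd79b, the signalling pair of the receptor, had 117 and 6 against 75 and 6 and 2 and 26 against 2 and 3. Ms4a1, encoding CD20, had 98 and 21 against 6 and 10, and Ly6d had 100 and 10 against 0 and 1. Both endogenous libraries were higher than both overexpressed ones for Ms4a1 and Ly6d, as for Iglc2, but neither was called (edgeR, adjusted p = 0.845 for each). Cd72 had 7 and 5 against 12 and 85 (edgeR, adjusted p = 0.845). Cd74, the invariant chain of antigen presentation, had 772 and 277 against 458 and 12. Of 17 genes on that list 11 were tested, with 5 folds above 0, 6 below and a median of -0.05, and the sums were 1305 and 960 against 717 and 408.

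**Figure D5:**
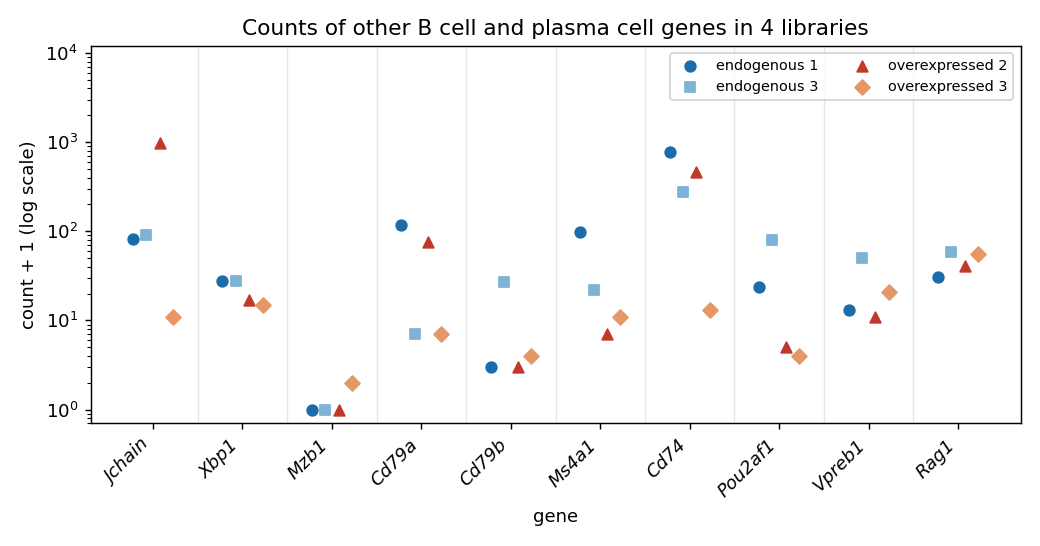
Counts of B cell and plasma cell genes (x axis) on a log scale of count + 1 (y axis), 1 point per library. Jchain was at 973 in overexpressed replicate 2 and at 10 in overexpressed replicate 3, Mzb1 was at 0 or 1 in every library, and Ms4a1 was at 21 or more in both endogenous and at 10 or fewer in both overexpressed libraries.

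Of 15 B-lineage transcription factors 12 were tested, 6 above and 6 below 0, with a median log2 fold of 0.05. Pou2af1, the coactivator that acts with octamer factors at immunoglobulin promoters, had 23 and 78 counts against 4 and 3, and its log2 fold was -3.61 ± 0.72 (edgeR, adjusted p = 0.814). Its octamer partner Pou2f2 had 55 and 58 against 381 and 89, the opposite order. Foxo1 had 25 and 31 against 12 and 10 (edgeR, adjusted p = 0.845). Pax5, which commits cells to the B lineage, had 51 and 53 against 66 and 53.

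Genes of rearrangement and of the early B cell receptor were present at low counts. Rag1 had 30 and 58 against 40 and 54 counts, so it did not follow Igkc or Iglc2. Of 11 recombination genes 5 were tested, 1 above and 4 below 0, with a median log2 fold of -0.45. The smallest p on that list were those of Hmgb1, a cofactor of RAG with 29 and 398 against 18 and 9, and Dclre1c, the Artemis nuclease with 46 and 17 against 6 and 19 (edgeR, adjusted p = 0.845 for each). Vpreb1 of the surrogate light chain had 12 and 49 against 10 and 20 and was the only one of 4 tested (log2 fold -0.84), and Vpreb2 had 2 and 10 against 1 and 0.

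Of 6 genes of class switching 2 were tested, Trp53bp1 with 16 and 24 against 14 and 9 and Msh6 with 5 and 16 against 7 and 12. Among 10 genes of Fc receptors and antibody transport 5 were tested, with a median log2 fold of 0.50. Fcgr2b, the inhibitory Fc receptor, had 7 and 9 against 13 and 11, Fcgrt, the neonatal Fc receptor, had 37 and 9 against 15 and 8, and Fcer1g, the common signalling chain, had 86 and 2 against 127 and 0. In Fcer1g the 2 high libraries are those that were high for Iglc1, Iglv1 and Cd79a.

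Markers of other cells were measured beside these. The T cell list of 12 genes summed to 115 and 150 against 377 and 179, led in p by Cd8b1 (50 and 46 against 230 and 73) and Cd5 (33 and 33 against 96 and 53). The neutrophil and monocyte list of 12 summed to 4885 and 6315 against 11677 and 7969, with Ltf and then Mpo (8 and 20 against 42 and 8) at the smallest p. Plasmacytoid dendritic genes, 8 listed, summed to 113 and 1146 against 385 and 113, with Siglech at 20 and 860 against 50 and 11 and Runx2 at 15 and 46 against 111 and 15. Overexpressed replicate 2 had the highest sums of the T cell and neutrophil lists as well as the most kappa counts. Cd8b1 and Cd5 gave most of its T cell sum. Of the other T cell genes, Lat (8 and 9 against 16 and 9) was highest there and Cd3d (8 and 25 against 10 and 17) was not. Ltf gave most of its neutrophil sum. Ngp, Camp, Elane and Prtn3 were also highest there, but S100a8, S100a9 and Lyz2 were highest in endogenous replicate 3.

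The erythroid list of 10 summed to 104 and 2379 against 323 and 133, with Hba-a1 at 9 and 182 against 12 and 0 and Car2 at 17 and 1021 against 9 and 111. Endogenous replicate 3 had the highest sums of the erythroid and plasmacytoid lists and the fewest immunoglobulin counts. Siglech gave 860 of its plasmacytoid sum of 1146, and Tcf4 (36 and 89 against 28 and 50) was also highest there. Bst2, Runx2 and Ly6c2 were highest in overexpressed replicate 2 instead, and Ccr9 in overexpressed replicate 3. On the erythroid list Klf1, Alas2 and Epor, all with 6 counts or fewer, were not highest in endogenous replicate 3. Stem cell and sort markers, 10 listed, summed to 146 and 170 against 353 and 134, with Flt3 at 56 and 37 against 242 and 33 and Cd34 at 32 and 26 against 58 and 38. No member of these lists was called in the main analysis, and their part in the immunoglobulin differences was not tested.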

How the data were processed

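Counts of 4 of the 6 labelled libraries were analysed, 2 per group, where the labels name 3 per group. The members and the gene lists were chosen with earlier results of these data known. The submitters' processing notes name the build mm10 and the tools edgeR 3.24.3, STAR and FastQC 0.11.8, with no roles. The deposited counts are whole numbers per gene, with no normalization. Which counter, annotation and strand setting made them, and how reads that match several genes were handled, is not given in the sources used here. The authors also deposited log2 fold changes and log2 mean expression, a likelihood ratio score and a signed score, with p-values and FDR values, per the file headers.

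All 55450 identifiers matched GENCODE vM21, which gave types, exon lengths and coding sequences. RefSeq promoter sequences matched 0 members. The main analysis was a quasi-likelihood test (edgeR 4.0.16, R 4.3.3, TMM scaling, filterByExpr with the groups, dispersions estimated as before edgeR 4) on all 10808 genes that passed the filter, with Benjamini-Hochberg adjustment and a threshold of 0.05. TMM factors ran from 0.857 to 1.149. A positive fold is higher in the overexpressed group, and its SE was derived from F. The fitting script was tested on simulated data. DESeq2 1.42.0, limma 3.58.1 and other alternatives are in the closing section. Sequences were compared with Biopython 1.88, as global alignments and as shared 50-base windows of annotated transcripts. Genes were named by a rule: all constant genes, all tested members, in each locus the 6 variable, 2 diversity and 2 joining genes with the most counts (ties included), by p the top 5 members each way, and the top 2 genes of each list. Further genes of the lists, Prdm1 and Sdc1 among them, and kappa variable genes beyond these were chosen after their values were seen. Some results on single genes of the lists are not reported here.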

Additional observations from a re-analysis of the deposited data

How the results depend on the processing

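Over 6 settings that kept all libraries (DESeq2 size factors, no filter, DESeq2, the likelihood ratio test, limma-voom with quality weights and the edgeR 4 quasi-dispersion), 96 log2 folds of the 16 tested genes were computed. Of these, 3 changed sign, all under limma-voom: Ighm (0.14), Igkc (-0.37) and Iglc1 (0.21). The cause was not tested. Another 9 went past the threshold: Iglc2, Iglc3 and Iglv2 with no filter, with DESeq2 and with the likelihood ratio test. Called genes numbered 822 with no filter, 151 with DESeq2 and 84 with the likelihood ratio test, against 0 with the edgeR quasi-likelihood test (566 at an unadjusted p under 0.05), limma-voom and the edgeR 4 quasi-dispersion. Called immunoglobulin genes numbered 20, 3 and 3 in that order. With no filter, 11 of the 129 genes of the marker lists were called, beside 1.78% of all rows above 0. Combined with leaving out 1 library, an alternative chosen after seeing the data, no filter gave 6 to 20 immunoglobulin genes.

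Leaving out 1 library at a time called 0 genes. The log2 ratio of locus levels then ran from 0.18 to 1.17 for Igh, 0.28 to 2.55 for Igk and -6.87 to -0.15 for Igl, with the values furthest from those of all libraries for Igh, Igk and Igl without overexpressed replicate 2 (0.18, 0.28 and -6.87) and the Igl value nearest 0 without endogenous replicate 1 (-0.15). Of 64 log2 folds, 13 in 9 genes changed sign, Igkv3-10 only by values near 0 (-0.056 and -0.058). The ranges of these genes were -1.39 to 2.48 (Ighg2b), -1.14 to 1.26 (Ighd), -1.19 to 1.88 (Ighm), -6.37 to 4.83 (Igkc), -0.06 to 1.86 (Igkv3-10), -1.15 to 0.17 (Igkv3-7), -1.09 to 0.45 (Igkv3-5), -9.38 to 8.97 (Iglc1) and -5.71 to 5.78 (Iglv1). Without a change of sign, Iglc2 ran from -8.59 to -4.22, Iglv2 from -8.85 to -4.67 and Ighe from 0.39 to 1.55. An arm left with 1 library was assumed to vary like the other. No paired analysis was possible because the groups analysed share only replicate number 3. With 2 libraries a group and few counts per gene, differences below the spread between libraries were not detectable.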
